A study of Mus musculus with 16 samples.

Results

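The 10 genes described here are Parp1, Parp2, Parp3, Parp8, Parp9, Parp10, Parp11, Parp12 and Parp14 of the PARP family, and Dtx3l, which is no PARP but a ubiquitin ligase that binds Parp9. They were taken by gene symbol from the 45777 genes of the count table, and all 10 were found and were among the 16209 genes that had at least 1 count in every tumor and were tested. Parp1, Parp2 and Parp3 were grouped as DNA damage members, Parp9, Parp10, Parp11, Parp12, Parp14 and Dtx3l as interferon-induced members, and Parp8 was kept apart. The tumors were allografts of B16F10, a melanoma cell line from C57BL/6 mice, grown under the skin of C57BL/6J mice (lean) or of leptin-deficient C57BL/6J-ob/ob mice (obese) that were 6 weeks old at grafting. In each host, 4 untreated tumors (before therapy) had been taken, and 4 more following treatment with etoposide (ETS), an inhibitor of topoisomerase II that leaves breaks in DNA, given intraperitoneally as 5 injections of 20 mg per kg. Obesity in ob/ob mice comes with the loss of leptin itself, all tumors come from 1 cell line, and the sex of the mice is not given in the sources used here. Those sources also do not say that tumors before and after ETS were of the same age, so ETS and the time passed cannot be told apart.

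PARP enzymes move ADP-ribose from NAD+ onto proteins and nucleic acids. Parp1 and Parp2 bind DNA breaks and build chains of ADP-ribose there that recruit repair factors, whereas Parp3 adds single units at double-strand breaks. Most of the other members add single units or none, and several of them are classical interferon-stimulated genes with roles in antiviral defence, switched on by transcription factors that interferon receptors activate. In tumors, interferon-gamma from T and NK cells is a known inducer of such genes in cancer cells and host cells alike.

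Of these genes, 3 are neighbors on chromosome 16 (positions are of the GRCm38.p6 assembly, which is the mm10 build). Parp14 lies from 35831892 to 35871518, Dtx3l from 35926515 to 35939027 and Parp9 from 35938470 to 35972621. Dtx3l and Parp9 are read in opposite directions and their annotated 5′ ends share 558 bases. The libraries were made with a stranded kit. If the counting did not use the strand of the reads, part of the counts of Dtx3l and Parp9 could be shared. The others lie on other chromosomes: Parp1 on chromosome 1 (180568891 to 180600999), Parp2 on chromosome 14 (50807897 to 50821301), Parp3 on chromosome 9 (106470322 to 106476949), Parp8 on chromosome 13 (116850842 to 117026019), Parp10 on chromosome 15 (76232995 to 76243440), and both Parp12 (39086412 to 39118349) and Parp11 (127446830 to 127514233) on chromosome 6.

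Promoter windows of 300 bases, 250 before and 50 after a start site, were found in RefSeq's GRCm38.p6 table for 7 of the 10 genes (8 windows, since Parp11 has 2). They were searched on both strands for the core of the interferon-stimulated response element (ISRE), which reads GAAA, 2 bases of any kind and GAAA, and for TTCNNNGAA, the core of the gamma-activated sequence. Both were found in the first Parp11 window and in none of the windows of Parp1, Parp2, Parp3, Parp8, Parp12 and Dtx3l, while Parp9, Parp10 and Parp14 have no entry. Over all 32851 windows of the table, 3.44% held the ISRE core and 8.30% held TTCNNNGAA. The longer form of the ISRE, in which CT follows the core, was held by 0.271% of all windows and was present in the same Parp11 window, on the strand opposite to the gene from 46 to 35 bases before the start site (127446794 to 127446805). TTCNNNGAA lay from 37 to 29 bases before it and overlapped the longer form. The start site of this window directly follows position 127446839, so it lies just inside the gene as placed above, from 127446830. A match of letters is no evidence of binding, and a window without a match says nothing about the factor. The 100 bases before the start sites are shown for Parp11, which carries the matches, and for Parp12 and Parp1, an interferon-induced and a DNA damage member without them, 5′ to 3′ on the strand of the gene and with the matched letters in capitals. These stretches are chr6:127446740-127446839 on the plus strand for Parp11, chr6:39118350-39118449 on the minus strand for Parp12 and chr1:180568791-180568890 on the plus strand for Parp1, and GENCODE M21 annotates no exon within them.
Parp11: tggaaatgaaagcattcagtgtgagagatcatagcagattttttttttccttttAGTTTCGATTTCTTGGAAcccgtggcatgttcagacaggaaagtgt
Parp12: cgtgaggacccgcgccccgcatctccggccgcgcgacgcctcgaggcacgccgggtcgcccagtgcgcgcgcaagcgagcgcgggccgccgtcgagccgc
Parp1: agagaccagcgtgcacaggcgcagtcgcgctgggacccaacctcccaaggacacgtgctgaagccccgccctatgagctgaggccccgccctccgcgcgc
The stretches also differ in base composition. G and C made up 42.0% of the whole first Parp11 window, 62.0% of that of Parp1 and 73.7% of that of Parp12, against a median of 52.7% over all windows. In the second Parp11 window, which held no match, they made up 59.0%. Which of the 2 start sites these tumors use was not tested.

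Total counts ranged from 47199949 to 61655287 per tumor, and no member fell below 165 counts in any tumor. Levels are given as CPM (counts scaled to library size after TMM normalization), which compare tumors for a gene, or as the deposited TPM, which are corrected for transcript length and compare genes. Fold changes and p-values come from edgeR's quasi-likelihood fit of all 16 tumors, adjusted over all 16209 tested genes, with 0.05 as the threshold. The labels number the tumors but do not say that each came from a separate mouse, so the p-values measure the spread between these tumors. The B16F10 label was checked against 7 melanocyte markers, which were present in every tumor at 8843 to 21240 TPM in sum. These markers speak to the melanocyte lineage and cannot tell B16F10 from another melanoma line. Whole tumors also hold host cells, and in such samples fewer cells of a type and less RNA per cell cannot be told apart.

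Before therapy, the DNA damage members Parp1 and Parp2 were at similar levels in both hosts, whereas the interferon-induced members were far lower in obese tumors. Parp1, the main sensor of DNA breaks, was at 186, 174, 188 and 191 CPM in lean tumors 1 to 4 and at 196, 201, 187 and 202 CPM in obese tumors. The ranges overlapped, and the log2 fold change (obese over lean) was 0.09 (-0.045 by TPM), with a 95% interval from -0.094 to 0.27 and an adjusted p of 0.484. Parp2, its partner enzyme, was at 20.3 ± 2.104 CPM in lean and 19.9 ± 1.28 CPM in obese tumors (mean ± SD, n = 4 tumors each), with an interval of the log2 fold change from -0.36 to 0.30 (adjusted p = 0.903). Parp3 did not go with them. It was at 48.3, 72.3, 67.2 and 58.4 CPM in lean tumors and at 29.0, 27.7, 23.8 and 20.2 CPM in obese tumors, so that every obese tumor lay below every lean one, and the difference was 2.44-fold (log2 fold change -1.29, SE 0.13, adjusted p = 6.54e-06).

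All 6 interferon-induced members were lower in obese tumors before therapy, by 4.65-fold for Parp11 to 24.0-fold for Parp14. With Parp3 and Parp8 this made 8 of the 10 genes, against 12.9% of all tested genes that were lower in obese tumors at an adjusted p under 0.05. The same 8 genes had no overlap between the hosts, with every obese tumor below every lean tumor, which held for 14.4% of all tested genes. Parp14, a large mono-ADP-ribosyltransferase with macrodomains that works as a STAT6 cofactor, showed the widest gap. It was at 91.9, 179, 159 and 158 CPM in the lean tumors and at 9.01, 9.81, 2.76 and 3.06 CPM in the obese tumors (log2 fold change -4.59, SE 0.39, adjusted p = 1.17e-06). Lean tumor 1 was the lowest of the lean tumors, and obese tumors 1 and 2 lay above obese tumors 3 and 4.

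Parp12, a mono-ADP-ribosyltransferase with zinc fingers that limits viral replication, was at 129, 186, 182 and 177 CPM in lean tumors and at 25.2, 19.3, 7.37 and 9.10 CPM in obese tumors. The groups did not overlap (11.1-fold lower in obese tumors, adjusted p = 1.7e-06), and lean tumor 1 and obese tumors 3 and 4 were again the lowest of their groups. Parp9, which has macrodomains and works in a complex with Dtx3l, was at 90.3, 134, 114 and 126 CPM in lean tumors and at 21.7, 19.4, 12.0 and 10.7 CPM in obese tumors (7.27-fold lower, adjusted p = 3.23e-07). Dtx3l was at 54.2, 96.1, 78.0 and 83.5 CPM in lean tumors and at 14.2, 12.4, 10.1 and 8.99 CPM in obese tumors (6.82-fold lower, adjusted p = 1.33e-07). Within each of these groups before therapy the tumors came in the same order for both partners, whose genes share bases at their starts. After ETS the order differed between the partners in both hosts. Parp10, a mono-ADP-ribosyltransferase that acts on itself and on other proteins, was at 68.9, 91.8, 80.5 and 95.1 CPM in lean tumors and at 17.9, 13.8, 6.35 and 8.67 CPM in obese tumors (7.21-fold lower, adjusted p = 1.76e-06). Parp11, a mono-ADP-ribosyltransferase of the nuclear envelope with a promoter window shown above, was at 69.2, 95.7, 85.4 and 87.7 CPM in lean tumors and at 23.0, 18.01, 15.5 and 16.3 CPM in obese tumors (adjusted p = 3.84e-07). In none of these 5 genes did a lean and an obese tumor overlap, and lean tumor 1 held the lowest lean value in each. Parp8, a mono-ADP-ribosyltransferase of little known function, had the smallest of the 8 differences, at 14.5 ± 2.69 CPM in lean and 8.02 ± 0.966 CPM in obese tumors (1.81-fold lower, adjusted p = 0.00124).

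**Figure D1:**
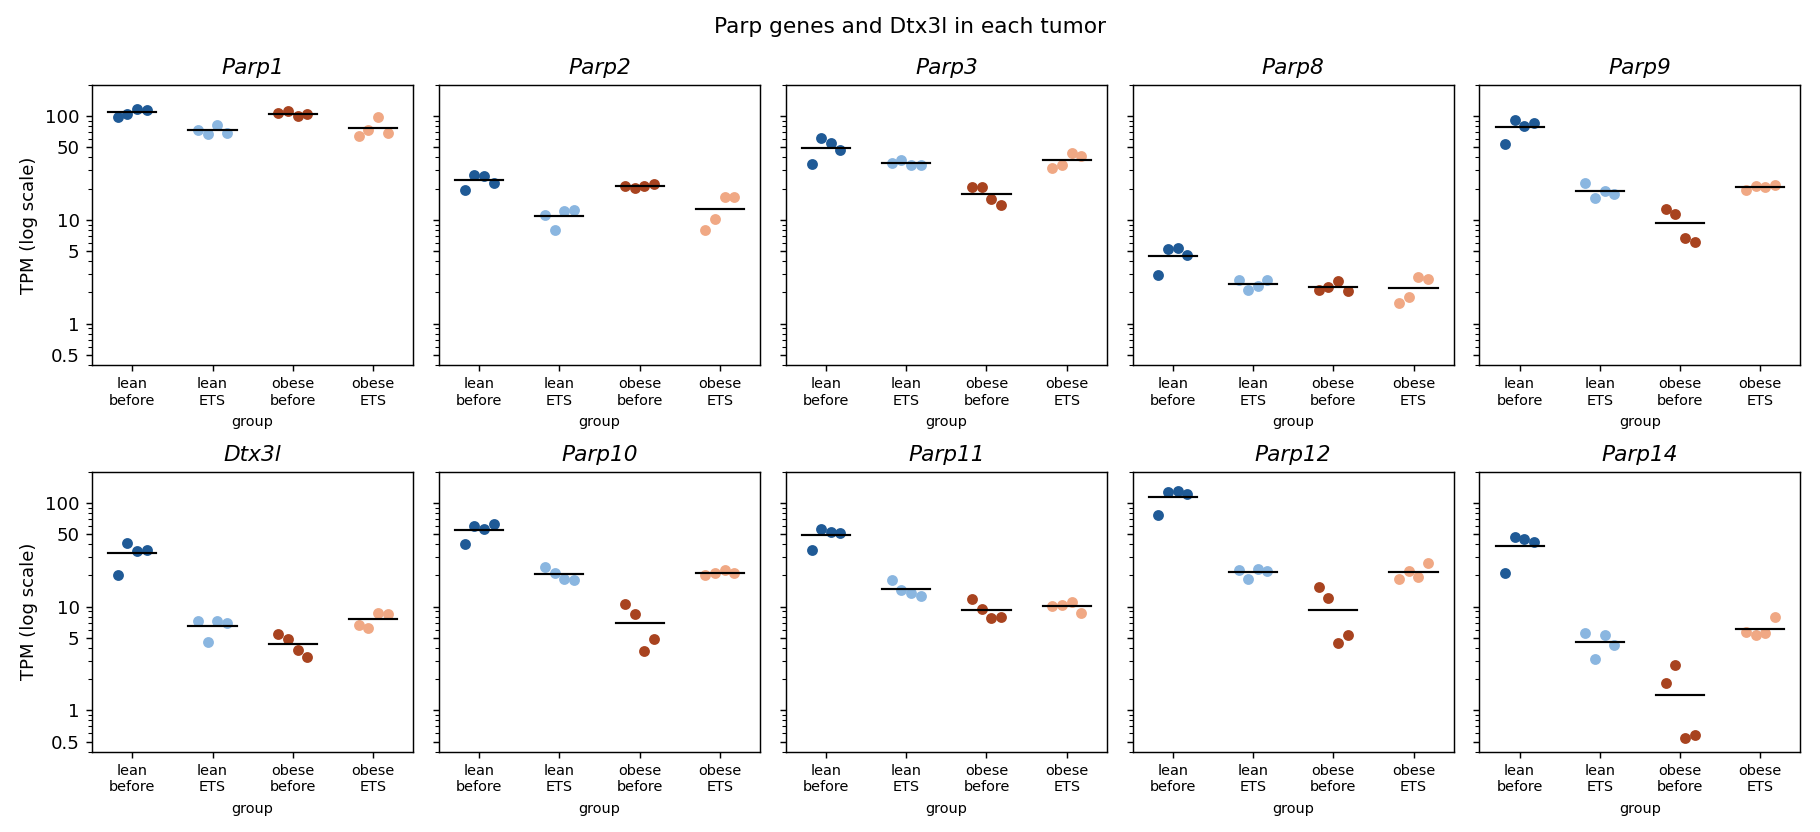
Deposited TPM (log scale) of the 10 genes in each tumor, in lean and obese hosts before therapy and after ETS; points are single tumors and lines are group means of 4. The 6 interferon-induced genes had their highest levels in lean tumors before therapy, and for these genes except Parp11 and Dtx3l the obese tumors before therapy lay below all other groups.

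The order of the levels within a group differed between the hosts. By TPM, Parp12 (113 ± 24.6 TPM) and Parp1 (109 ± 9.28 TPM) were the highest of the 10 genes in lean tumors before therapy, with overlapping ranges, and Parp9 followed at 77.7 ± 16.3 TPM. In obese tumors before therapy, Parp1 (105 ± 5.30 TPM) stood apart from all others, Parp2 (21.3 ± 0.716 TPM) and Parp3 (17.8 ± 3.45 TPM) came next with overlapping ranges, and Parp12 was at 9.35 ± 5.37 TPM. Parp14 was the lowest there, at 1.41 ± 1.06 TPM, in a range that overlapped that of Parp8 (2.25 ± 0.242 TPM). After ETS the upper part of the order was shared by both hosts, with Parp1 first (73.1 ± 6.71 TPM in lean and 76.1 ± 15.1 TPM in obese tumors), Parp3 second (35.1 ± 1.78 and 37.8 ± 6.01 TPM) and Parp12 and Parp10 next, whose ranges overlapped in both hosts. Within a tumor, the TPM of Parp14 ranged from 0.216 to 0.445 of that of Parp1 in lean tumors before therapy and from 0.00545 to 0.0243 of it in obese tumors before therapy. After ETS these shares were 0.0460 to 0.0759 in lean and 0.0564 to 0.117 in obese tumors, so the hosts overlapped after ETS and not before.

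**Figure D2:**
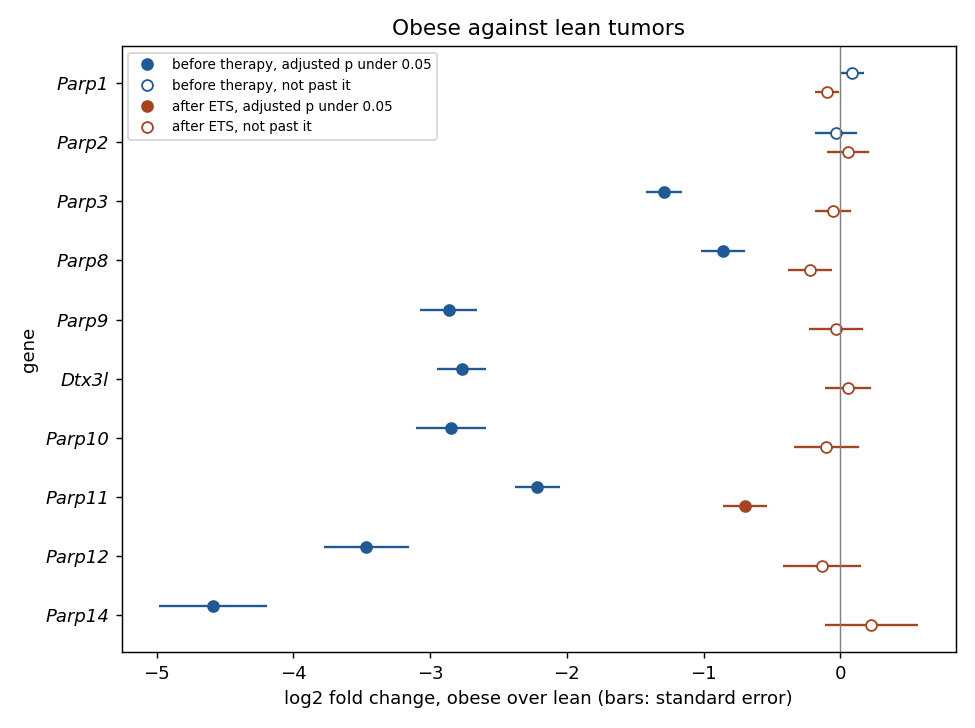
Log2 fold change of obese over lean tumors for each gene, before therapy (blue) and after ETS (red), from edgeR with standard errors as bars; filled points have an adjusted p under 0.05. Before therapy 8 genes were lower in obese tumors, and after ETS Parp11 alone passed the threshold.

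In lean tumors, ETS was followed by lower levels of all 6 interferon-induced members, of Parp2 and of Parp8. These 8 of the 10 genes fell at an adjusted p under 0.05 and none rose, against 22.8% of all tested genes that fell. In 8 genes every tumor after ETS lay below every tumor before therapy (20.3% of all tested genes); they were Parp1, Parp2 and the 6 interferon-induced members, while the ranges of Parp3 and Parp8 overlapped. Parp14 went from 147 ± 38.1 to 21.5 ± 5.08 CPM (n = 4 tumors each), with the treated tumors at 27.6, 16.1, 23.5 and 18.9 CPM, a fall of 6.83-fold (log2 fold change -2.77, SE 0.36, adjusted p = 4.63e-05). Parp12 fell from 169 ± 26.6 to 41.5 ± 1.94 CPM (4.05-fold, adjusted p = 0.000108), and the treated tumors were close together at 44.4, 40.1, 40.4 and 41.2 CPM. The other interferon-induced members fell by 3.85-fold for Dtx3l (adjusted p = 2.86e-06), 3.04-fold for Parp9 (adjusted p = 3.4e-05), 2.49-fold for Parp11 (adjusted p = 3.05e-05) and 2.03-fold for Parp10 (adjusted p = 0.00351). The 6 genes had a median of -1.77 on the log2 scale, and all tested genes one of -0.015.

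Among the DNA damage members, Parp2 fell in lean tumors from 18.3, 22.9, 21.2 and 18.9 CPM to 12.6, 9.87, 12.3 and 13.1 CPM (log2 fold change -0.76, SE 0.16, adjusted p = 0.00134). Parp1 was at 164, 167, 166 and 147 CPM after ETS, each below the lowest lean tumor before therapy, but its log2 fold change of -0.20 (SE 0.086) did not pass the threshold (adjusted p = 0.0718). By TPM the log2 fold change of Parp1 was -0.57 with an adjusted p of 0.000846 in limma. The TPM scale moved the median of all genes by -0.35 in this comparison, with 15.7% of the calls over all genes being rises against 48.0% with TMM, so relative to the other genes the value is close to that with TMM. Parp3 was at 61.5 ± 10.5 CPM before and 58.2 ± 6.64 CPM after ETS (log2 fold change -0.08, 95% interval -0.36 to 0.19, adjusted p = 0.635), and by TPM it passed the threshold at -0.45 (adjusted p = 0.0342), again with that shift of the median. Parp8 fell from 14.5 ± 2.69 to 10.03 ± 1.21 CPM (log2 fold change -0.53, adjusted p = 0.0142), a call that was lost without lean tumor 2 before therapy (log2 fold change -0.45, adjusted p = 0.0504).

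In obese tumors the direction was the opposite for most interferon-induced members. Parp9, Parp10, Parp12, Parp14 and Dtx3l rose after ETS, as did Parp3, while Parp1 and Parp2 fell. Thus 6 of the 10 genes rose, against 21.2% of all tested genes, and 2 fell, against 19.0%. The same 6 genes had all treated tumors above all tumors before therapy (16.4% of all tested genes), and Parp1 and Parp2 had all treated tumors below them (17.7% of all tested genes). Parp14 rose from the low values given above to 25.3, 23.5, 21.6 and 30.3 CPM (4.11-fold, log2 fold change 2.04, SE 0.36, adjusted p = 0.000588). Parp10 rose from 11.7 ± 5.18 to 38.6 ± 2.80 CPM (3.31-fold, adjusted p = 0.000132), with the treated tumors at 40.8, 41.2, 36.5 and 35.9 CPM. The treated tumors lay closer together than those before therapy in both genes on the log scale of the plot of TPM by tumor.

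Parp12 (2.49-fold, adjusted p = 0.00263), Parp9 (2.34-fold, adjusted p = 0.000345) and Dtx3l (1.84-fold, adjusted p = 0.00122) rose less. Parp11 was the exception among the interferon-induced members, at 23.7, 23.0, 20.5 and 16.8 CPM after ETS in a range that overlapped the tumors before therapy (log2 fold change 0.21, 95% interval -0.13 to 0.55, adjusted p = 0.319). Parp3 rose to 56.9, 56.1, 55.8 and 55.4 CPM, 2.23-fold above the tumors before therapy (log2 fold change 1.15, SE 0.13, adjusted p = 3.46e-05). Its treated tumors had an SD of 0.629 CPM, whereas by TPM they spread more widely, from 31.8 to 44.4 TPM. Parp1 fell to 145, 158, 173 and 127 CPM (log2 fold change -0.39, SE 0.086, adjusted p = 0.0029), and Parp2 fell to 8.83, 10.97, 14.7 and 15.3 CPM (log2 fold change -0.68, adjusted p = 0.00349). Parp8 had a log2 fold change of 0.10 (-0.028 by TPM, 95% interval -0.24 to 0.44, adjusted p = 0.656). The median of the 6 interferon-induced members was 1.27, against 0.0066 for all tested genes.

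**Figure D3:**
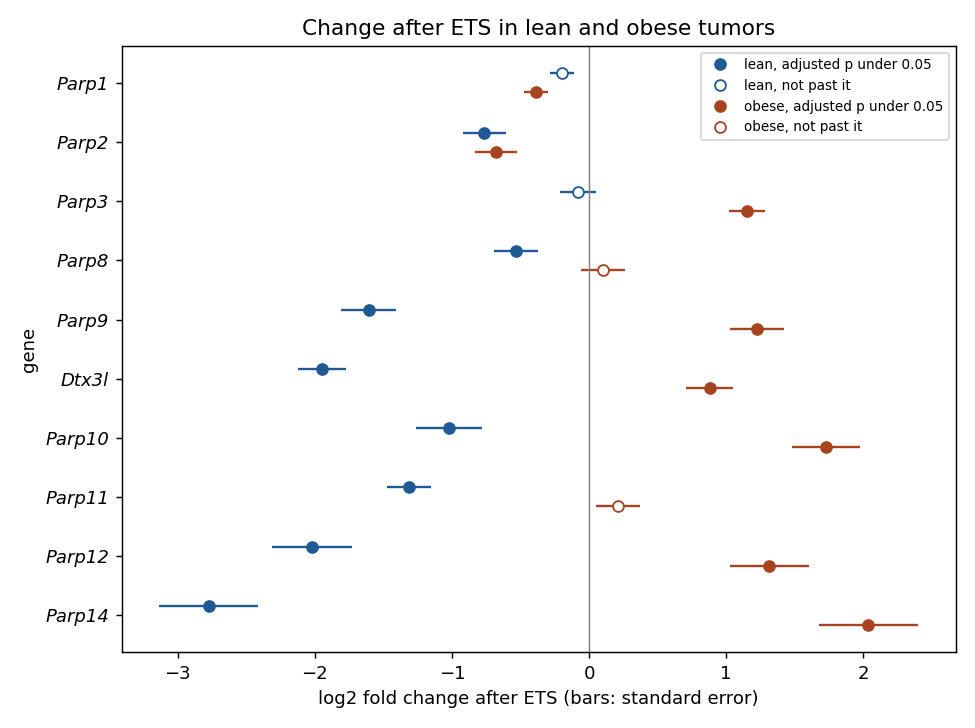
Log2 fold change after ETS in lean (blue) and obese (red) tumors for each gene, from edgeR with standard errors as bars; filled points have an adjusted p under 0.05. All 6 interferon-induced genes lie left of 0 in lean tumors and right of 0 in obese tumors, where the open point of Parp11 did not pass the threshold, whereas Parp1 and Parp2 lie left of 0 in both.

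The difference between the responses of the hosts was tested directly, as the effect of ETS in lean minus that in obese tumors. The 6 interferon-induced members and Parp3 responded lower in lean than in obese tumors past the threshold, which is 7 of the 10 genes against 10.1% of all tested genes. The difference in log2 fold change was -4.81 for Parp14 (SE 0.51, adjusted p = 2.7e-05), -3.33 for Parp12 (adjusted p = 8.86e-05), -2.83 for Parp9 (adjusted p = 2.04e-05), -2.83 for Dtx3l (adjusted p = 1.03e-05), -2.75 for Parp10 (adjusted p = 1e-04), -1.52 for Parp11 (adjusted p = 0.000376) and -1.24 for Parp3 (SE 0.18, adjusted p = 0.000375). For Parp1 the difference was 0.19 (-0.088 by TPM, 95% interval -0.072 to 0.44, adjusted p = 0.326) and for Parp2 it was -0.087 (95% interval -0.55 to 0.38, adjusted p = 0.83). Parp8, at -0.63, had an unadjusted p of 0.0132 and an adjusted p of 0.0693. This comparison and that of the hosts before therapy share the tumors before therapy, so their values are not independent of each other.

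After ETS the levels in the hosts lay close together. The interferon-induced members other than Parp11 had log2 fold changes (obese over lean) between -0.13 for Parp12 and 0.23 for Parp14, none past the threshold and all with overlapping ranges. By TPM the sign turned for Parp9, Parp10 and Parp12, as it did for Parp1 and Parp3. The 95% intervals were from -0.45 to 0.38 for Parp9, from -0.61 to 0.41 for Parp10, from -0.73 to 0.47 for Parp12, from -0.50 to 0.95 for Parp14 and from -0.30 to 0.42 for Dtx3l, so that for Parp14 a difference of up to 0.95 log2 units is within the interval. For Parp1, Parp2 and Parp3 the intervals were from -0.28 to 0.085, from -0.27 to 0.39 and from -0.33 to 0.22. Parp11 alone was lower in obese tumors, at 21.0 ± 3.10 against 34.0 ± 6.65 CPM (log2 fold change -0.69, SE 0.16, adjusted p = 0.0262), against 2.30% of all tested genes that were lower and 6.85% that were lower with no overlap, as Parp11 was. That call depended on single tumors, since the adjusted p was 0.0611 without lean treated tumor 1, 0.0553 without lean treated tumor 2 and 0.0815 without obese treated tumor 4. Over all tested genes the number called in this comparison also moved with single tumors, from 904 to as few as 186 without lean treated tumor 4. The unadjusted p was under 0.05 for Parp11 alone among the 10.

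Ordered by CPM, the groups thus formed a series for Parp9, Parp10, Parp12, Parp14 and Dtx3l, with lean tumors before therapy highest, both treated groups overlapping in the middle and obese tumors before therapy lowest, each step except the middle one free of overlap. For Parp11 lean tumors before therapy and lean tumors after ETS were each free of overlap with the next group, and the obese groups overlapped at the bottom. For Parp3 the 3 groups other than obese tumors before therapy overlapped. For Parp1 and Parp2 the groups before therapy overlapped at the top and the treated groups at the bottom, with no overlap between them.

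Among themselves, the interferon-induced members moved in near proportion in some pairs and not in others. The TPM of Dtx3l was 0.371 to 0.445 of that of Parp9 in lean and 0.424 to 0.568 of it in obese tumors before therapy, and 0.280 to 0.395 and 0.290 to 0.421 of it after ETS. The TPM of Parp14 against that of Parp9 was 0.391 to 0.563 in lean tumors and 0.0811 to 0.237 in obese tumors before therapy, which shows the steeper differences of Parp14. The likeness of a pair of genes was measured as the root mean square difference of their centred log2 CPM over the 16 tumors, where 0 means equal profiles. Parp9 was 0.264 from Dtx3l, 0.323 from Parp10 and 0.332 from Parp12, and 1.10 from Parp1. Parp1 was 0.327 from Parp2 and 0.673 from Parp3, and Parp3 was 0.458 from Parp8, its nearest member, and 0.641 from Parp10. Over all tested genes, the nearest profiles were those of Trim21 for Parp9 (0.199) and Parp12 (0.194), Stat2 for Dtx3l (0.198), Ifi35 for Parp10 (0.297), Psme1 for Parp11 (0.219), Tapbp for Parp14 (0.381), Srbd1 for Parp1 (0.0841), Iws1 for Parp2 (0.119), Ikbke for Parp3 (0.171) and A630001G21Rik for Parp8 (0.140). A small value is easier to reach for genes that vary little, as Parp1 and Parp2 do.

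The 7 other PARP genes on the list, Parp4, Parp6, Parp16, Tiparp, Zc3hav1, Tnks and Tnks2, were tested too. In lean tumors 2 fell after ETS, against 22.8% of all tested genes. In obese tumors none passed the threshold in edgeR after ETS (none at an unadjusted p under 0.05 either). The difference between the hosts' responses was called for Zc3hav1 and Parp4. Zc3hav1, the antiviral zinc finger protein ZAP, which is a PARP without activity, fell in lean tumors from 66.5 ± 10.8 to 27.8 ± 5.43 TPM (log2 fold change -0.88 with TMM, adjusted p = 1.42e-05), with -0.01 in obese tumors (adjusted p = 0.939) and a difference of -0.87 (adjusted p = 0.000603). Parp4, the vault PARP, had a difference of -0.92 (adjusted p = 0.0419). The tankyrases Tnks and Tnks2 passed in none of the 5 comparisons. Before therapy, Zc3hav1 was lower in obese tumors by 0.63 log2 units, and Parp6 and Tiparp were higher by 0.56 and 0.58, at adjusted p-values of 0.000263, 0.0409 and 0.0135. After ETS only Parp16 differed between the hosts (log2 fold change 0.37, adjusted p = 0.0463).

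The partners and erasers of ADP-ribose moved in both directions in lean tumors. Of 7 on the list, 3 fell and 2 rose in lean tumors (Adprh and Macrod1), against 22.8% and 21.0% of all tested genes. In obese tumors 4 fell, against 19.0% of all tested genes. The median log2 fold change of the 7 was 0.12 in lean and -0.55 in obese tumors. The difference between the hosts' responses to ETS was called for Macrod1 alone, a mitochondrial enzyme that removes single ADP-ribose units (1.29, adjusted p = 0.0235). Hpf1 and Parg are named for their direct work with Parp1 and Parp2 and were chosen after their values were seen. Hpf1, the factor that directs Parp1 and Parp2 to serine, fell by 0.39 log2 units in lean and by 0.55 in obese tumors (adjusted p = 0.00107 and 0.000131). Parg, the glycohydrolase that takes the chains apart, fell by 0.38 and by 0.66 (adjusted p = 0.0327 and 0.00159). Of 11 genes of single-strand break and base excision repair, 3 fell and 1 rose in lean tumors. Of all tested genes, 22.8% fell and 21.0% rose there. In obese tumors 5 fell, against 19.0% of all tested genes, and Tdp1, Lig1 and Fen1 fell in both hosts. No difference between the hosts' responses was called by edgeR (3 had an unadjusted p under 0.05). In levels, 1 was lower in obese tumors before therapy (Lig1), against 12.9% of all tested genes. After ETS 2 were lower there (Xrcc1 and Tdp1), against 2.30%. All 11 proliferation genes on the list fell after ETS in both hosts, against 22.8% of all tested genes in lean and 19.0% in obese tumors. Their median log2 fold changes were -0.69 and -0.76, beside the fall of Parp2 in both hosts and of Parp1 in obese tumors. The part of the proliferation genes in those falls was not tested. Nampt, the enzyme of the main route to NAD+ in most cells, fell in both hosts (log2 fold change -0.87 and -0.68, adjusted p = 7.9e-05 and 0.000621). Of the 7 tested genes of NAD supply, the difference between the hosts' responses was called for Naprt alone (-2.64, adjusted p = 0.0154), which was at or below 1.82 TPM in every tumor.

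The genes of interferon signaling moved with the interferon-induced members. Of 12 such genes, 10 were lower in obese tumors before therapy (12.9% of all tested genes) and 9 fell in lean tumors after ETS (22.8%). In obese tumors 7 rose after ETS (21.2% of all tested genes), and 9 had a lower response in lean tumors (10.1%). After ETS 1 differed between the hosts (Ifngr1, higher in obese tumors). The 9 with a lower response in lean tumors included Stat2 and Irf9, transcription factors of the type I interferon response, whose differences between the responses were -2.76 and -1.97 (adjusted p = 2.96e-05 and 8.07e-05). Irf1, an early target of interferon-gamma, was at 292 ± 88.1 TPM in lean tumors before therapy and between 9.80 and 26.9 TPM in every other tumor. It fell in lean tumors (log2 fold change -3.46, adjusted p = 1.47e-06), and in obese tumors its value was 0.36 (adjusted p = 0.294), not past the threshold, as for Parp11. Irf7, a target of type I interferon, rose in obese tumors by 3.79 log2 units (adjusted p = 0.00011) and fell in lean tumors by 1.77 (adjusted p = 0.00745). The mRNA of interferon-gamma (Ifng) had 65 to 176 counts in each lean tumor before therapy, at 1.88 to 4.90 TPM, and 0 to 4 counts in every other tumor, with a count of 0 in 3 of 4 tumors of each other group. Ifng and Ifnb1, which was near or at 0 in every tumor, were therefore not tested.

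Summed markers of T or NK cells and of macrophages, like the interferon-induced members, were higher in lean tumors before therapy than in lean treated and obese untreated tumors. In obese tumors after ETS the macrophage sum was higher than before. In the same tumors the T or NK cell sum had a median of 2.39 TPM, against 0.233 TPM before therapy. The ranges of that sum overlapped, and no obese tumor exceeded 4 TPM. The plot of Parp14 beside summed markers shows this. The summed markers of B cells were higher after ETS in both hosts. Those of neutrophils were higher in obese than in lean tumors before therapy, through S100a8 and S100a9 and not Ly6g. The 6 T or NK cell markers (Cd3d, Cd3e, Cd8a, Cd4, Nkg7 and Gzmb) summed to 44.3 to 83.6 TPM in lean tumors before therapy, 0.353 to 1.48 TPM in lean tumors after ETS, 0 to 1.08 TPM in obese tumors before therapy and 0.642 to 4 TPM in obese tumors after ETS. All 6 were present in every lean tumor before therapy, and in obese tumors before therapy all 6 were at 0 in at least 1 tumor and Cd3e was at 0 in all 4. The 6 macrophage markers (Cd68, Csf1r, Adgre1, Lyz2, C1qa and Mrc1) were present in every tumor and summed to 456 to 1246 TPM in lean and 49.8 to 272 TPM in obese tumors before therapy, and to 56.1 to 287 TPM in lean and 280 to 977 TPM in obese tumors after ETS. Of these, 5 were lower in obese tumors before therapy (12.9% of all tested genes) and 4 fell in lean tumors (22.8%). In obese tumors 4 rose (21.2% of all tested genes), and 5 had a lower response in lean tumors (10.1%). Lean tumor 1, the lowest of its group in every interferon-induced member, had the highest macrophage sum of that group (1246 TPM) and the lowest T or NK cell sum (44.3 TPM). The same tumor was also the lowest of its group in Parp2, Parp3 and Parp8, and in Parp1 by TPM but not by CPM, so its low values were not particular to the interferon-induced members. After ETS, the summed macrophage markers of the hosts barely touched (up to 287 TPM in lean and from 280 TPM in obese tumors), whereas the ranges of Parp9, Parp10, Parp12, Parp14 and Dtx3l overlapped. The 3 endothelial markers rose in obese tumors (21.2% of all tested genes) and 1 fell in lean tumors (22.8%), and the same counts held for the 3 fibroblast markers. The 7 melanocyte markers summed to 17280 to 21240 TPM in lean and 8843 to 12900 TPM in obese tumors before therapy. Of the 7, 3 were lower in obese tumors, against 12.9% of all tested genes. The 3 B cell markers summed to 1.204 to 2.278 TPM in lean and 1.80 to 2.40 TPM in obese tumors before therapy and to 2.76 to 4.36 and 3.06 to 3.43 TPM after ETS, and Cd79a, the tested one, rose in both hosts (log2 fold change 1.62 in lean and 0.72 in obese tumors, with adjusted p-values of 0.000232 and 0.0347). The 3 neutrophil markers summed to 0.9997 to 2.024 TPM in lean and 2.87 to 63.1 TPM (median 4.32 TPM) in obese tumors before therapy, and none of them was tested. Of these, Ly6g had at most 3 counts in lean tumors and 0 in every obese tumor before therapy. Of the adipocyte markers Fabp4 was tested, and it rose in obese tumors after ETS (log2 fold change 1.53, adjusted p = 0.0227) and lay above its lean level there (3.31, adjusted p = 0.00769). The skeletal muscle markers had 1 tested gene, Ckm, which passed in none of the 5 comparisons in edgeR (2 had an unadjusted p under 0.05). The part of these cell types in the differences of the interferon-induced members was not tested.

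**Figure D4:**
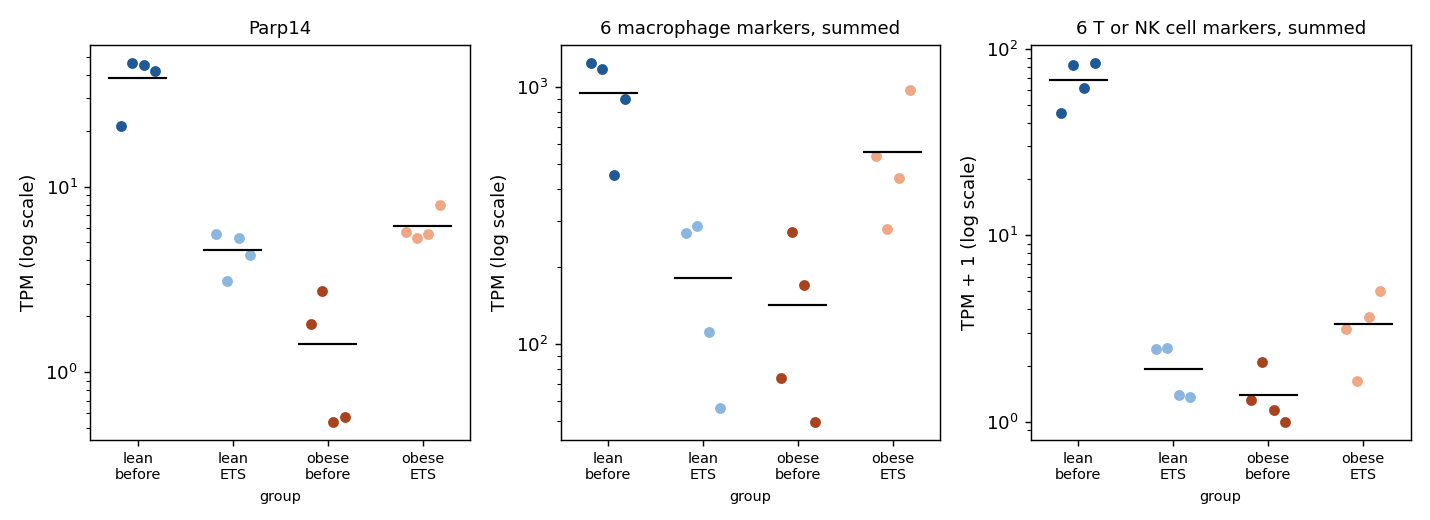
TPM of Parp14 and summed TPM of 6 macrophage and 6 T or NK cell markers in each tumor by group, on log scales, with 1 added to the T or NK cell sum; points are single tumors and lines are means of 4. Parp14 and the T or NK cell sum (44.3 to 83.6 TPM) were above all other tumors in lean tumors before therapy, the macrophage sum was highest there by its mean with a range that overlapped obese tumors after ETS, and obese tumors after ETS exceeded obese tumors before therapy in Parp14 and in the macrophage sum.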

How the data were processed

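RNA of 16 B16F10 tumors, 4 per group, had been sequenced as poly(A)-selected paired-end libraries made with a stranded kit. The authors aligned the reads to mm10 with HISAT2 2.1.0 and quantified genes with StringTie 2.1.3b. Counts were deposited as whole numbers without normalization. TPM and FPKM, also made by the authors with StringTie, were deposited beside them, and FPKM was not used. Whether counting used the strand is not given in the sources used here. Genes lacking counts in at least 1 tumor (29568 of 45777) were left out as in the authors' methods. Counts were scaled by TMM and fitted with edgeR 4.0.16 (R 4.3.3), a quasi-likelihood test with a mean for each group over all 16 tumors and Benjamini-Hochberg adjustment. The authors' own exact test on counts with 1 added was an alternative, beside DESeq2 1.42.0, its size factors, limma 3.58.1 (voom, and log2 TPM with 1 or 0.1 added), 2 other filters, only the groups compared, a replicate block and each tumor left out. The tests were tested on simulated data. Totals of 47199949 to 61655287 counts and 4 tumors per group set the precision; the biological coefficient of variation was 0.233. No 2 tumors of a group agreed within sampling noise. Replicate numbers come from the sample titles, which do not say that they pair the tumors. Genes were matched by Entrez identifier to RefSeq's GRCm38.p6 tables (45679 of 45777). The members and gene lists were chosen with earlier results of these data known. All 10 members are named, up to 4 examples per other list (largest difference between the hosts' responses, unless the text says otherwise), and the tested gene nearest to each member. The values of 1 listed gene are not reported here.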

Additional observations from a re-analysis of the deposited data

Results flagged for a closer look

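Among the 40 sets of 4 tumors (10 genes in 4 groups), 3 held a tumor that stood apart by Dixon's test at its 95% limit, about as many as the 1 in 20 that chance gives. Parp1 was at 147.1 CPM in lean treated tumor 4, against 164.4 to 167.0 CPM in the other lean treated tumors. Parp8 was at 9.461 CPM in obese tumor 3 before therapy, against 7.463 to 7.577 CPM in the others. Parp12 was at 128.9 CPM in lean tumor 1 before therapy, against 177.2 to 186.3 CPM in the others. The effect of ETS differed between lean and obese tumors in edgeR's test of the difference (lean minus obese, log2 units) for 7 genes: -1.235 for Parp3, -2.831 for Parp9, -2.749 for Parp10, -1.521 for Parp11, -3.334 for Parp12, -4.81 for Parp14 and -2.826 for Dtx3l, each lower in lean tumors.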

How the results depend on the processing

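Across 10 alternatives (8 for the difference between the hosts' responses) and 16 fits that each left out 1 tumor, the count of members called stayed between 7 and 10 in lean tumors, at 8 in obese tumors, between 7 and 8 for the difference and at 8 between the hosts before therapy. After ETS, the count between the hosts, reported as 1, was 0 with limma on log2(TPM + 1), 0 on log2(TPM + 0.1) and 0 with only the groups compared, and ranged from 0 to 1 when single tumors were left out. The adjusted p of Parp11 in that comparison was 0.0787, 0.0727 and 0.0824 under these alternatives. Of the 32 called fold changes of members none turned direction under any setting run. Changes of sign were found among the 18 that were not called. By TPM with 1 or 0.1 added, they were Parp8 in obese tumors (-0.028 and -0.049), Parp1 in the difference (-0.088 with both) and before therapy (-0.045 and -0.046), and, after ETS, Parp1 (0.043 with both), Parp3 (0.090 and 0.092), Parp9 (0.13 and 0.14), Parp10 (0.063 and 0.066) and Parp12 (0.0017 and 0.0015). With 1 tumor left out, they were Parp3 in lean tumors without lean untreated tumor 2 (0.0061, range over single tumors left out -0.18 to 0.0061), Parp2 in the difference without obese treated tumor 3 (0.0034, range -0.26 to 0.0034), Parp2 before therapy without lean tumor 2 (0.031) or obese tumor 2 (0.0066, range -0.078 to 0.031), and, after ETS, Parp2 without lean tumor 2 (-0.032) or obese tumor 3 (-0.034) or 4 (-0.052, range -0.052 to 0.20), Parp9 without lean tumor 1 (0.071) or obese tumor 3 (0.024) or 4 (0.0020, range -0.105 to 0.071), Parp10 without lean tumor 1 (0.0063, range -0.19 to 0.0063) and Dtx3l without lean tumor 2 (-0.046, range -0.046 to 0.12). Parp1 in lean tumors passed the threshold by TPM, with only the groups compared (adjusted p = 0.0459) and without obese treated tumor 3 (0.0477) or 4 (0.0216), and Parp8 passed it in the difference with DESeq2 (0.0335) and without lean untreated tumor 1 (0.0209) or obese treated tumor 1 (0.0382). The cause was not tested in any of these cases.

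The TPM scale also moved the median log2 fold change of all genes by -0.35 in lean tumors, by -0.26 in the difference, by -0.13 before therapy and by 0.13 after ETS, and the share of rises among all calls from 48.0% to 15.7%, from 38.7% to 9.24%, from 51.0% to 29.0% and from 58.7% to 83.8%. Over all genes, the count of calls between the hosts after ETS was 904 and moved to 450 without the exclusion of low counts, 2078 with DESeq2, 1683 with a replicate block and 66 with only the groups compared. With single tumors left out it ranged from 186 to 1347, and was 186, 235, 433 and 481 without lean treated tumors 4, 3, 2 and 1 and 243 without obese treated tumor 4. Tumors with the same replicate number did not deviate together throughout (correlations of -0.112 to 0.452 over 24 pairs, 11 of them above 0.1). Pairs of unlike number were not compared, so a pairing or batch shared by some numbers is not settled. The replicate block left the counts of members called at 8, 8, 7, 8 and 1. Over all genes it raised the calls in every comparison, to 1683 from 904 between the hosts after ETS. Depth did not limit these genes, which had at least 165 counts in every tumor, whereas Ifng and the T or NK cell markers were near or at 0 in 3 of the 4 groups and were left out of the tests with the other genes that lacked counts.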
